A study of Homo sapiens with 16 samples.

Results

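An ALKBH5 knockdown (labelled A5-KD) was compared with control in THP-1, an established line of human monocytic leukaemia cells, 1.5 h into a SLAM-seq chase. The comparison rests on 4 of the 16 libraries of the series, 2 per genotype, and 10549 of the 60564 genes in the deposited table were tested in it. They were chosen by an abundance of at least 5 CPM (read counts scaled to library size) and a conversion rate above 0 in at least 1 of the 16 libraries. Control cells are labelled wild type for ALKBH5. How the knockdown was made, and whether it is 1 clone, is not given in the sources used here. Cells of both genotypes received 100 µM 4-thiouridine (4sU) for 1 h, were washed, and were kept in 10 mM uridine until collection. The other 12 libraries, at 0, 4.5 and 7.5 h, helped to estimate the spread. The labels do not say whether the 2 replicates of a group were separate cultures, and the p-values measure only the spread between these libraries, which may be technical.

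ALKBH5 is an RNA demethylase that removes N6-methyladenosine (m6A), the most common internal modification of messenger RNA. The mark is written by the METTL3 complex on adenosines that often sit in a GGACT context, and reader proteins that bind it can speed up or slow down the decay of a transcript. ALKBH5 is known for its role in acute myeloid leukaemia cells, where KDM4C, MYB and RNA polymerase II have been placed upstream of it and the receptor AXL downstream. In SLAM-seq, 4sU built into new RNA is read as a T-to-C change, so the conversion rate of a gene (converted bases as a percentage of its sequenced T bases, as the deposited values were read) rises with the share of labelled molecules and falls as these are lost or diluted by unlabelled ones. A rate carries no information on abundance, and how many T bases lie behind a rate, and so the depth, is unknown.

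The A5-KD libraries had higher conversion rates for nearly all genes. The median rate over the tested genes was 0.478% and 0.472% in the control libraries and 1.11% and 1.10% in the A5-KD libraries, or 0.475% ± 0.00437 against 1.10% ± 0.0105 (SD, n = 2). The groups did not overlap, and the gap between them was far larger than the gap between replicates. Between 0.389% and 0.901% of tested genes were listed at 0 in each of the 4 libraries. Replicates had Spearman correlations across genes of 0.664 in control and 0.770 in A5-KD, against 0.651 to 0.670 for pairs of libraries of different genotype. Genes are not independent replicates, so these are descriptions.

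**Figure D1:**
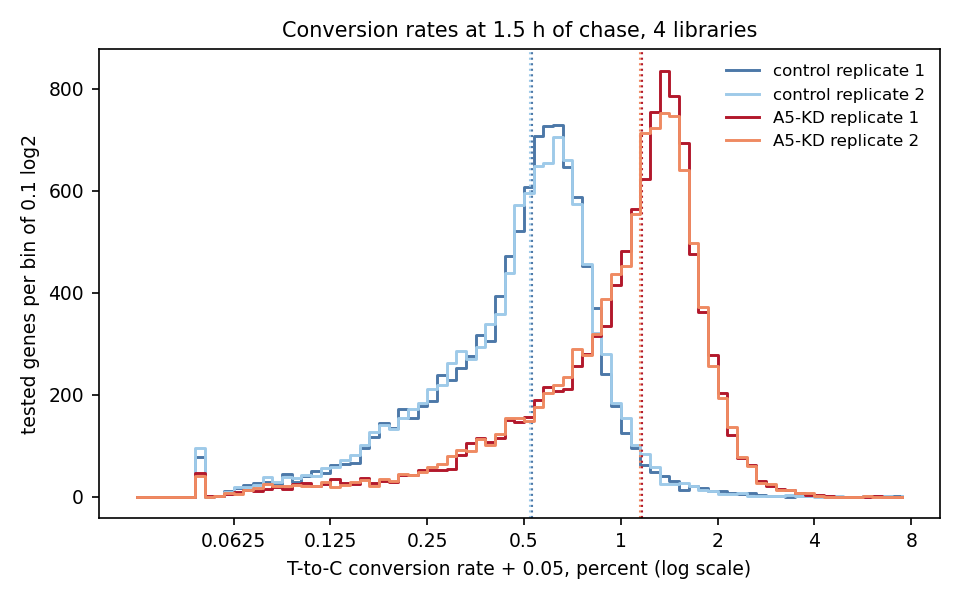
Number of tested genes (vertical axis) by T-to-C conversion rate plus 0.05 percentage points (horizontal axis, log scale) in the 2 control and 2 A5-KD libraries at 1.5 h, with dotted lines at each library's median. The 2 curves of a genotype lie on each other, and the A5-KD curves lie to the right, with medians of 1.11% and 1.10% against 0.478% and 0.472%.

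By limma on log2(rate in percent + 0.05), 6466 genes were higher in A5-KD (61.3% of those tested) and 8 were lower (0.0758%, 61.4% in either direction), with Benjamini-Hochberg adjusted p under 0.05. The other 4075 did not pass. The median difference was 1.10 on the log2 scale, a 2.15-fold higher rate, with quartiles of 0.81 and 1.35. In percentage points the median difference was 0.592. All 4 rates were ordered by genotype for 9047 genes with A5-KD higher (85.8%) and for 119 with A5-KD lower (1.13%). The share of genes called grew with abundance, from 663 of 2113 in the lowest of 5 CPM groups to 1884 of 2109 in the highest, while the median difference moved only from 1.06 to 1.13. A gene described as higher in A5-KD thus shared this with most genes, and many genes are also given relative to the common shift. For that, the median log2 rate of each library was subtracted first, which took 1.14 log2 from every difference. These values are called centred.

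Centred values left 108 genes past the threshold, 5 above the common shift (0.0474% of those tested) and 103 below it (0.976%, 1.02% in either direction). The 103 genes below the shift had a median rate of 0.117% in control and 0.118% in A5-KD. Of these, 34 differed by less than 0.01 percentage points, beside 121 of all 10549 tested genes. The genes were called from these same rates for lying below the shift, so their small difference is set in part by the choice. Uncentred, 32 of the 103 were still higher in A5-KD, 5 were lower and 66 did not pass the test. They were abundant, with a median CPM of 299 against 21.6 for all tested genes, and 84 had a control rate below the library median. The 0.05 percentage points added before taking logs pull differences toward 0 where rates are this low. With 0.01 added instead, 60 of the 103 calls were kept. The counts also depended on single libraries. Without control replicate 1 or 2, 60 and 64 genes were called below the shift, and without A5-KD replicate 1 or 2, 62 and 54, of which 52 to 59 were among the 103. Above the shift 2, 5, 1 and 0 genes were called in the same order, of which 0, 2, 1 and 0 were among the 5.

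**Figure D2:**
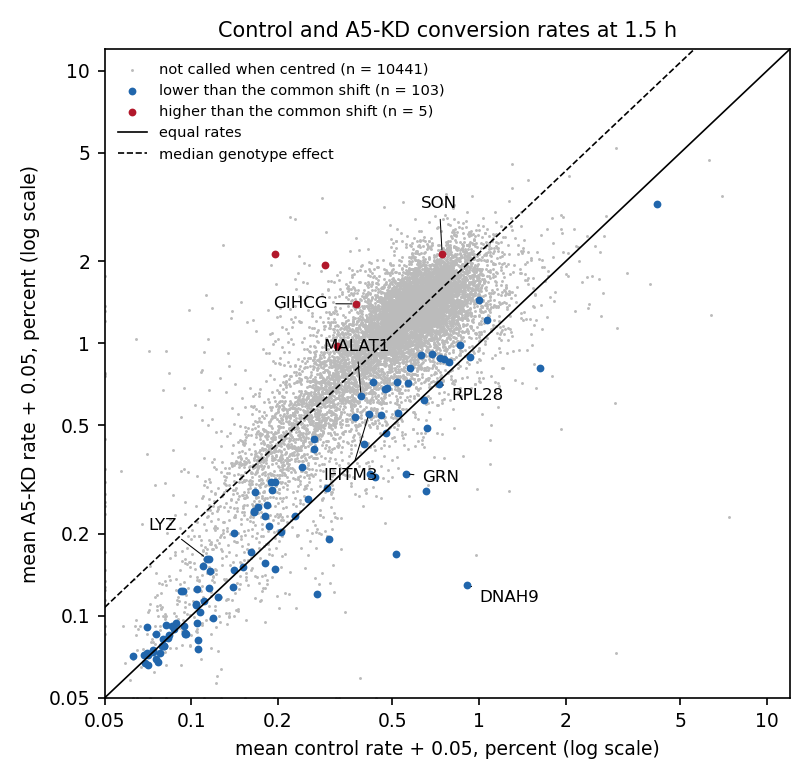
Mean A5-KD rate (vertical axis) against mean control rate (horizontal axis), each plus 0.05 percentage points on a log scale, for the 10549 tested genes at 1.5 h. The 103 genes called below the common shift (blue) lie near the solid line of equal rates, while the cloud of genes follows the dashed line of the median difference, 2.15-fold higher in A5-KD. The 5 genes above the shift are red.

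ALKBH5 itself (chromosome 17, 18183078 to 18209954, hg38) had a CPM of 4.55 and fell just under the abundance minimum. Its rate was 0.802% and 0.745% in control and 2.08% and 1.46% in A5-KD. Both A5-KD libraries were higher than both control libraries. With a CPM minimum of 1, where 38.9% of 16241 genes were called higher and 0.0369% centred higher, the difference was 1.13 log2 (SE 0.661, limma adjusted p = 0.193) and the centred one was 0.01 (SE 0.662, limma adjusted p = 1.00). These rates do not check the knockdown, because they carry no abundance and the single CPM column is not tied to a genotype.

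Of the 7 tested genes around ALKBH5 in leukaemia, MYB, AXL and KDM4C were higher in A5-KD and 4 did not pass the test. That is 42.9% called higher, beside 61.3% of all tested genes. None passed the centred test. MYB (chromosome 6, 135181315 to 135219173), a transcription factor needed by blood progenitors, had rates of 0.490% and 0.501% in control and 2.04% and 1.53% in A5-KD. The control replicates were close and the A5-KD replicates further apart, without overlap. MYB was 1.73 log2 higher (SE 0.232, limma adjusted p = 1.41e-04) and stood 0.60 above the common shift (limma adjusted p = 0.403). AXL (chromosome 19, 41219203 to 41261766), a receptor tyrosine kinase, had 0.257% and 0.268% in control and 0.801% and 0.747% in A5-KD. Its difference was 1.398 (SE 0.163, limma adjusted p = 5.9e-05) and 0.26 after centring. KDM4C (chromosome 9, 6720863 to 7175648), a histone H3K9 demethylase, had 0.553% and 0.667% in control and 1.26% and 1.401% in A5-KD, a difference of 1.07 (SE 0.202, limma adjusted p = 0.00115). Its centred difference was −0.06, and 0.02 with centring on the mean. The groups of AXL and of KDM4C did not overlap. POLR2A, the largest subunit of RNA polymerase II, was 0.27 higher (SE 0.339), and one A5-KD library, at 0.564%, lay below both control libraries, at 0.675% and 0.597%. MERTK, a relative of AXL, was 0.32 higher (SE 0.446), and GAS6 and PROS1, ligands of these receptors, were 0.81 and 0.58 higher (SE 0.612 and 0.409). Centred, POLR2A stood at −0.87, MERTK at −0.82, GAS6 at −0.33 and PROS1 at −0.56. The rates of GAS6 and of PROS1 did not overlap between genotypes, while those of MERTK did (0.393% and 0.441% in control, 0.393% and 0.712% in A5-KD).

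Short windows around a GGACT in the 3′ UTR are shown for AXL, KDM4C and ALKBH5, since that pentamer is the context in which m6A is often written. They come from the longest coding transcript of each gene in GENCODE 29, on the transcript's strand, with the pentamer in capitals:
AXL: tacagagtgtGGACTctggtgcctc
KDM4C: agtcagggaaGGACTctcacttatt
ALKBH5: ctagctagagGGACTggtgtccttc
MYB was searched too, and the other genes of the axis were not. The AXL transcript held 8 such pentamers, that of ALKBH5 4, that of KDM4C 3 and that of MYB 2, the last with none in the 3′ UTR. GGACT occurred on the transcript strand in 91.3% of the 8850 coding transcripts searched, so its presence marks no gene out. Across 4 equal groups of transcripts by GGACT per kilobase, the median difference between genotypes was 1.14, 1.12, 1.12 and 1.09 log2 from the fewest to the most. This small fall in the medians was not tested. Whether any of these sites carries m6A in these cells was not measured.

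The m6A machinery followed the common shift. Of 18 tested writers, erasers and readers 15 were higher (83.3%, beside 61.3% of all tested genes) and 3 did not pass. In the CPM group that holds the list's median CPM, 34.5, the share was 77.4%. The list's median was 1.15 log2 beside 1.10 for all genes, and no member was called after centring. Centred values ran from −0.90 to 0.66, with 9 members above the shift and 9 below it. The genes given next both lay above the list's median. FTO, the other m6A demethylase, had 0.439% and 0.471% in control and 1.42% and 1.73% in A5-KD, a difference of 1.68 (SE 0.202, limma adjusted p = 7.31e-05). IGF2BP2, a reader that protects bound transcripts, was 1.56 higher (SE 0.295, limma adjusted p = 0.00119).

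The 8 genes with the largest higher calls among those of at least median abundance were 6.21 to 11.5 times higher by their mean rates. They included SERPINB6, TAF10, C12orf57, DUS1L, ZNG1E, CHROMR and the gene ENSG00000232732. TAF10, a subunit of the general transcription factor TFIID, had 0.0730% and 0.0118% in control and 0.533% and 0.441% in A5-KD. CHROMR, a long noncoding RNA, had 0.165% and 0.162% in control and 1.16% and 0.986% in A5-KD (2.39 log2, SE 0.289, limma adjusted p = 7.6e-05). Its replicates were close, while those of ENSG00000232732, at 0.259% and 0.0356% in control and 0.567% and 2.63% in A5-KD, differed several-fold within each genotype. None of the 8 passed after centring, where the smallest adjusted p was 0.0674, for CHROMR. The DUS1L call ended without control replicate 2 (1.62, limma adjusted p = 0.0590) or A5-KD replicate 1 (1.74, limma adjusted p = 0.0591).

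Of the 8 genes with a lower rate in A5-KD, 2 met the rule for named genes. DNAH9, an axonemal dynein heavy chain, had 1.24% and 0.477% in control and 0.0571% and 0.102% in A5-KD, a difference of −2.69 log2 (SE 0.515, limma adjusted p = 0.00126). Its rates at the pulse end were 0.333% and 0.294% in control and 0.461% and 0.305% in A5-KD, which overlapped. GRN, which encodes the lysosomal and secreted protein progranulin, had 0.517% and 0.493% in control and 0.296% and 0.268% in A5-KD, a difference of −0.74 (SE 0.236, limma adjusted p = 0.0182). Its control rates at 1.5 h were above those of control at 0 h, 0.264% and 0.348%, and 4.5 h, 0.251% and 0.301%. The GRN call ended when any 1 of the 4 libraries was left out, with adjusted p from 0.0532 to 0.0861, while its centred difference of −1.88 (limma adjusted p = 0.00116) passed in each case. CERKL, a ceramide kinase-like gene, and FAM50A, a gene linked to splicing, were also called lower, at −1.59 and −1.20, but were picked here after their values were seen. The CERKL call ended without control replicate 1 (−1.30) or A5-KD replicate 1 (−1.45), and that of FAM50A without any 1 of the 4 libraries.

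SON, SAP18 and GIHCG stood above the common shift. SON, a splicing cofactor of nuclear speckles (chromosome 21, 33542618 to 33577481), had 0.668% and 0.720% in control and 2.12% and 2.04% in A5-KD, 1.52 log2 higher and 0.38 above the shift (SE 0.0629, limma adjusted p = 0.00961). SAP18, a subunit of a histone deacetylase complex that also binds spliced RNA, had 0.274% and 0.268% in control and 0.940% and 0.918% in A5-KD, 0.47 above the shift (SE 0.0868, limma adjusted p = 0.0221). GIHCG, a long noncoding RNA, had 0.308% and 0.340% in control and 1.29% and 1.399% in A5-KD, 0.77 above the shift (SE 0.119, limma adjusted p = 0.00637). In all 3 the replicates were close and the groups far apart, with mean rates 2.998, 3.42 and 4.16 times those of control. Their centred differences at 0 h, in other libraries, were 0.33, 0.51 and 0.82. The centred calls did not stand without single libraries. That of GIHCG ended without control replicate 1 (0.70, limma adjusted p = 0.0878) or A5-KD replicate 2 (0.70, limma adjusted p = 0.0923), that of SON without any of the 4 but control replicate 2 (0.32 to 0.40), and that of SAP18 without any 1 of the 4 (0.46 to 0.48).

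The remaining 2 genes above the shift, named after their values were seen, were less abundant. AIM2, a cytosolic DNA sensor, had 0.175% and 0.306% in control and 1.64% and 2.13% in A5-KD, 1.63 above the shift (SE 0.341, limma adjusted p = 0.0463). At 0 h its rates were 0.716% and 0.633% in control and 1.06% and 1.35% in A5-KD, and its centred difference there was −0.28. ENSG00000258581, a pseudogene that lies opposite the far more abundant WARS1, was 2.32 above the shift. Both calls ended without any 1 of the 4 libraries.

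**Figure D3:**
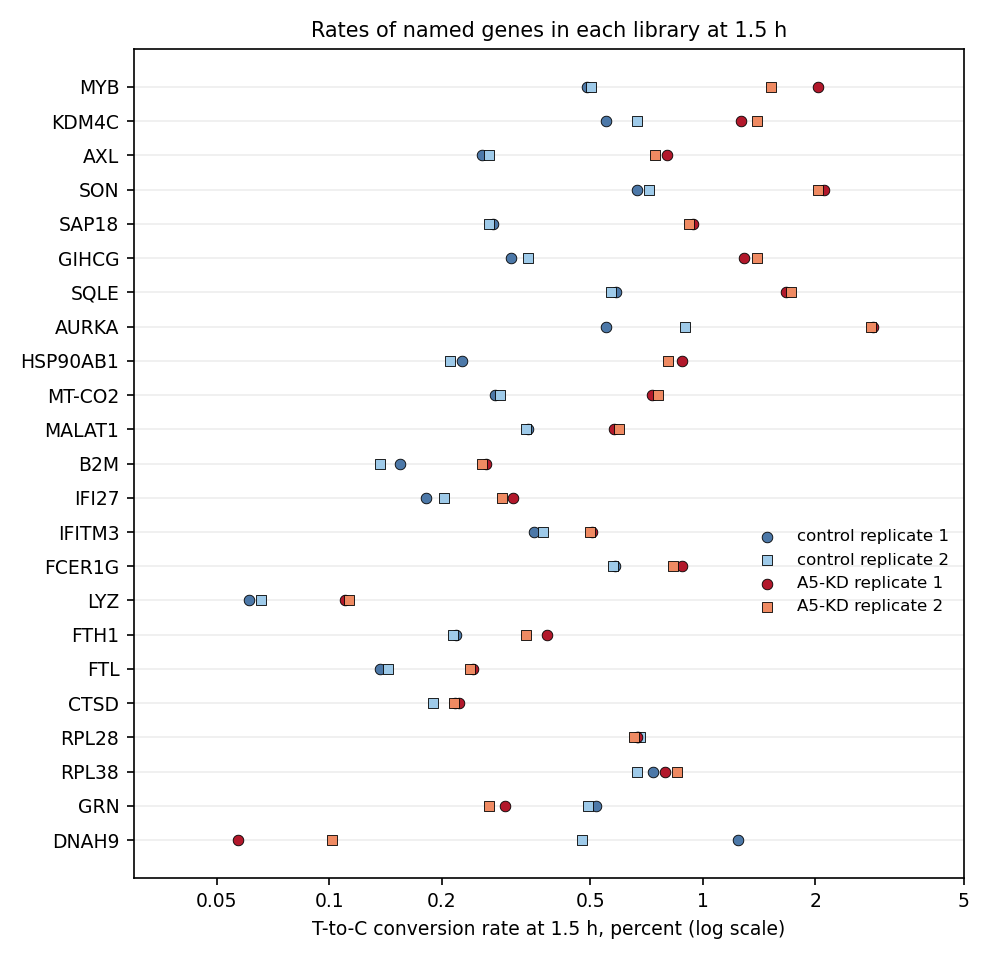
T-to-C conversion rate at 1.5 h (horizontal axis, percent, log scale) of 23 named genes in each of the 2 control (blue) and 2 A5-KD (red, orange) libraries. SON, SAP18 and GIHCG show wide gaps between genotypes. MALAT1, B2M and IFITM3 show narrow ones, RPL28 none, and GRN and DNAH9 the opposite order.

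SYN1, PCDH15 and NUP62CL were among the 8 largest centred differences below the shift at or above the median CPM. SYN1, which encodes the synaptic vesicle protein synapsin I and lies on chromosome X opposite TIMP1, had 0.429% and 0.339% in control and 0.285% and 0.258% in A5-KD. Its difference was −0.43 log2 (SE 0.203, limma adjusted p = 0.0855) and −1.56 after centring (limma adjusted p = 0.00147). Its control rates lay above its A5-KD rates without overlap, and the centred call stood without each of the 4 libraries. PCDH15, a protocadherin of hair cells, had 0.215% and 0.285% in control and 0.0964% and 0.187% in A5-KD, a centred difference of −1.81 (limma adjusted p = 0.0442) that did not pass without any 1 of the 4 libraries. NUP62CL, a relative of a nucleoporin, had 0.0538% and 0.0574% in control and 0.0161% and 0.0475% in A5-KD, with −1.53 (limma adjusted p = 0.00565). That call ended without control replicate 2 (−1.50) or A5-KD replicate 1 (−1.24). Both A5-KD libraries were below both control libraries in PCDH15 and NUP62CL, although the A5-KD replicates differed from each other by more than the control replicates did.

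The most abundant transcripts of these cells included several below the common shift. Of the 5 genes with the highest CPM, MALAT1, IFI27, SERF2 and B2M were called below it and LST1 was not. MALAT1, a nuclear long noncoding RNA of speckles, had 0.341% and 0.337% in control and 0.579% and 0.598% in A5-KD. It was higher by 0.72 log2 (SE 0.0376), which put it 0.42 below the shift (centred −0.42, limma adjusted p = 7.56e-05). B2M, the light chain of HLA class I molecules, had 0.155% and 0.136% in control and 0.263% and 0.257% in A5-KD, with a centred difference of −0.47 (limma adjusted p = 8.89e-05). IFI27, an interferon-induced mitochondrial protein, had 0.181% and 0.203% in control and 0.310% and 0.291% in A5-KD, with −0.60 (limma adjusted p = 6.61e-05). SERF2 was at −0.36 (limma adjusted p = 0.0224), and leaving out any 1 of the 4 libraries ended this call. LST1, a leukocyte transmembrane protein, had 0.219% and 0.212% in control and 0.615% and 0.512% in A5-KD, a centred difference of 0.07. In all 5 genes the A5-KD libraries lay above the control libraries without overlap.

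Monocyte and macrophage markers had the lowest median of the lists with more than 10 tested members. Of 35 tested, 24 were higher in A5-KD (68.6%) and none was lower, with a median of 0.83 log2 beside 1.10 for all genes. After centring 4 were below the shift (11.4%), none was above it, and the median was −0.30. Over all tested genes 61.3% were higher and 0.976% were centred lower. In the highest CPM group, which holds the list's median CPM of 101, these shares were 89.3% and 3.65%. LYZ, lysozyme, had 0.0611% and 0.0657% in control and 0.111% and 0.113% in A5-KD, a centred difference of −0.62 (SE 0.0659, limma adjusted p = 3.61e-04). FCER1G, the signalling chain of Fc receptors, had 0.581% and 0.574% in control and 0.881% and 0.833% in A5-KD, with −0.60 (limma adjusted p = 0.00149). LGALS1, the lectin galectin-1, was at −0.60 (limma adjusted p = 0.00221). CTSD, the lysosomal protease cathepsin D, had 0.218% and 0.190% in control and 0.223% and 0.216% in A5-KD, nearly the same in both genotypes, with −1.05 (limma adjusted p = 0.00741). That call ended without control replicate 1 (−0.98), A5-KD replicate 1 (−1.05) or A5-KD replicate 2 (−1.04), with adjusted p from 0.0692 to 0.0956. LIPA, the lysosomal acid lipase, chosen after its values were seen, had 0.0717% and 0.0589% in control and 0.0779% and 0.0756% in A5-KD, with −0.997 (limma adjusted p = 1.48e-04). At the other times the list's centred median was also below 0, with −0.40 at 0 h, −0.26 at 4.5 h and −0.30 at 7.5 h.

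Interferon-stimulated genes also lay below the shift as a list, with a centred median of −0.15. Of 47 tested 40 were higher in A5-KD (85.1%) and 4 were centred lower (8.51%). Over all tested genes these shares were 61.3% and 0.976%. They were 89.3% and 3.65% in the highest CPM group, which holds the list's median CPM of 108. IFITM3, a membrane protein that blocks virus entry, had 0.354% and 0.374% in control and 0.504% and 0.498% in A5-KD, which was 0.41 log2 higher and −0.72 after centring (SE 0.0584, limma adjusted p = 4.88e-05). IFI6, another interferon-induced protein, had 0.133% and 0.127% in control and 0.197% and 0.168% in A5-KD, a centred difference of −0.77 (limma adjusted p = 6.0e-04). The fourth, beside IFI27, was IFITM1 at −0.43 (limma adjusted p = 0.0416), lost without any 1 of the 4 libraries. Among inflammatory genes, CCL5, a chemokine for T cells, stood at −0.59 (limma adjusted p = 0.00894), while CCL4, a chemokine of the same cluster, had 0.530% and 0.495% in control and 1.66% and 1.70% in A5-KD and stood at 0.49 (limma adjusted p = 0.244). The CCL5 call ended without control replicate 1 (−0.51, limma adjusted p = 0.113) or A5-KD replicate 1 (−0.53, limma adjusted p = 0.127). Of 29 tested members of that list 19 were higher (65.5%) and 1 was centred lower (3.45%). In the CPM group that holds its median CPM, 33.0, these shares were 77.4% and 0.900%.

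Both ferritin chains, which form the iron store of the cell, were below the shift, a pair chosen after their values were seen. FTH1, the heavy chain, had 0.219% and 0.215% in control and 0.384% and 0.336% in A5-KD, with a centred difference of −0.52 (SE 0.0575, limma adjusted p = 5.02e-04). FTL, the light chain, had 0.137% and 0.144% in control and 0.242% and 0.238% in A5-KD, with −0.53 (limma adjusted p = 4.4e-04). The 2 mRNAs share the iron-responsive element of ferritin messages, a hairpin bound by iron regulatory proteins. It is shown to mark what the pair has in common, from GENCODE 29 transcripts with the bases of the loop that were searched for (CAGTG, transcript strand) in capitals:
FTH1: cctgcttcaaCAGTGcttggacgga
FTL: cttgcttcaaCAGTGtttggacgga
FTLP3, annotated as a pseudogene of FTL, had 0.115% and 0.126% in control and 0.206% and 0.197% in A5-KD, near the rates of FTL. Its annotated transcript shares an unbroken run of 118 bases with that of FTL, so reads of the 2 may not be told apart. The actin-binding thymosins TMSB4X and TMSB10, also chosen after their values were seen, stood at −0.40 and −0.58. Each of these 2 calls ended without any of 3 of the 4 libraries (−0.32 to −0.40 and −0.49 to −0.60).

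RPL28 and RPL38, proteins of the large ribosomal subunit, had rates above the control library median and a small difference between genotypes. RPL28 had 0.670% and 0.681% in control and 0.667% and 0.654% in A5-KD, a difference of −0.03 log2 (SE 0.137) and −1.17 after centring (limma adjusted p = 8.48e-04). Its rates at the other 3 times ran from 0.583% to 0.841% in control and from 0.552% to 0.854% in A5-KD. RPL38 had 0.737% and 0.669% in control and 0.794% and 0.855% in A5-KD, with −0.92 (limma adjusted p = 3.43e-05). Of 46 tested large-subunit genes 38 were higher (82.6%) and 3 were centred lower (6.52%), and the list's centred median was 0.04. Over all tested genes these shares were 61.3% and 0.976%, and in the highest CPM group 89.3% and 3.65%. The median CPM of this list, of the small-subunit list and of the respiratory chain list fell in that group. All but 2 of 32 small-subunit genes were higher, for example RPS16, with 0.145% and 0.1004% in control and 0.540% and 0.421% in A5-KD, and none was called after centring. ATP5MF, an ATP synthase subunit, was likewise below the shift at −0.73 (limma adjusted p = 0.00142), the only one called of 62 nuclear-encoded respiratory chain genes, of which 59 were higher.

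Cholesterol biosynthesis genes had the highest median of the lists. Of 20 tested 16 were higher in A5-KD (80%, beside 61.3% of all tested genes) and 4 did not pass. In the CPM group that holds the list's median CPM, the share higher was 62.4%. The list's median was 1.48 log2 and its centred median 0.35. No member was called after centring, and 14 of the 20 were above the shift beside 4913 of all 10549 genes. SQLE, squalene epoxidase, had 0.586% and 0.567% in control and 1.67% and 1.73% in A5-KD (centred 0.34, SE 0.132, limma adjusted p = 0.404). HMGCS1, which makes HMG-CoA, had 0.562% and 0.544% in control and 1.74% and 1.94% in A5-KD (centred 0.51, SE 0.275, limma adjusted p = 0.679). EBP, a sterol isomerase, had 0.207% and 0.151% in control and 0.729% and 0.829% in A5-KD (centred 0.73, SE 0.288, limma adjusted p = 0.413). The groups of these 3 genes did not overlap, and the list's centred median was 0.09 at 0 h, 0.35 at 4.5 h and 0.11 at 7.5 h.

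Cell-cycle genes lay close to the common shift. Of 42 tested mitosis and spindle genes 37 were higher (88.1%), with a centred median of 0.11. Of 41 S-phase genes 33 were higher (80.5%), with a centred median of 0.12. Over all tested genes the share was 61.3%. In the CPM groups that hold the median CPM of these lists, 32.8 and 26.4, it was 77.4% and 62.4%. None of either list was called after centring. AURKA, a mitotic kinase, had 0.550% and 0.898% in control and 2.86% and 2.83% in A5-KD (centred 0.80, limma adjusted p = 0.309). NUF2, a kinetochore protein, had 1.06% and 1.00% in control and 1.33% and 1.22% in A5-KD, non-overlapping but only 0.29 log2 higher (SE 0.226, limma adjusted p = 0.269). Its centred value, −0.85, was the lowest of the mitosis and spindle list.

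All 19 tested chaperone genes were higher, beside 61.3% of all tested genes. In the highest CPM group, which holds the list's median CPM of 170, the share was 89.3%. HSP90AB1, a cytosolic HSP90, had 0.227% and 0.210% in control and 0.881% and 0.809% in A5-KD. Its centred difference of 0.60 (SE 0.133) missed the threshold (limma adjusted p = 0.0607). The value at 0 h was −0.06. Of 25 ATF4 and unfolded protein response genes 19 were higher (76.0%, beside 61.3% of all tested genes) and none was called after centring. In the CPM group that holds the list's median CPM, 40.0, the share was 77.4%. The list's centred median was −0.05, with 11 members above the shift and 14 below it. ATF4, the transcription factor of that response, had 0.421% and 0.414% in control and 1.57% and 1.78% in A5-KD (centred 0.75, limma adjusted p = 0.262). NUPR1, a stress-induced nuclear protein, was at 0.239% and 0.207% against 0.864% and 1.08% (centred 0.77, limma adjusted p = 0.333). SDF2L1, of the same list, lay below the shift (centred −0.60, limma adjusted p = 0.372). Among genes of very short-lived mRNAs, 17 of 34 were higher, a share below that of all genes. In the CPM group that holds the list's median CPM, 14.2, 971 of 2111 were higher, a share below that of the list. The list's median difference was 1.18 log2 beside 1.10 for all genes, with a centred median of 0.05. For 32 of the 34, all 4 rates were ordered with A5-KD higher, beside 9047 of all 10549 tested genes (85.8%). EGR1, an immediate early transcription factor, had 0.538% and 0.376% in control and 1.30% and 1.57% in A5-KD.

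RNA-processing factors are read against the 61.3% of all tested genes that were higher, and against the CPM group that holds each list's median CPM. The share higher in that group was 89.3% for the splicing factors and snoRNA host genes, and 77.4% for the decay factors and long noncoding RNAs. Of 31 tested SR and HNRNP splicing factors 30 were higher, among them HNRNPDL with 0.530% and 0.510% in control and 2.05% and 1.62% in A5-KD. HNRNPD, its AU-rich element-binding relative, had 0.491% and 0.369% against 0.642% and 0.634%, a centred difference of −0.60 (SE 0.116, limma adjusted p = 0.0290) beside −0.03 at 0 h. That call held only without control replicate 2, and without each of the other 3 libraries it lay between −0.43 and −0.60. Of 48 mRNA decay factors 38 were higher, including UPF2, a nonsense-mediated decay factor (1.53, SE 0.158), and none was called after centring. Among 12 tested nuclear and unstable long noncoding RNAs 9 were higher and MALAT1 alone was centred lower. Among 21 snoRNA host genes 17 were higher. SNHG6 was the one centred lower, with 0.858% and 0.752% in control and 0.917% and 0.954% in A5-KD (−0.93, limma adjusted p = 0.0211), lost without any 1 of the 4 libraries.

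**Figure D4:**
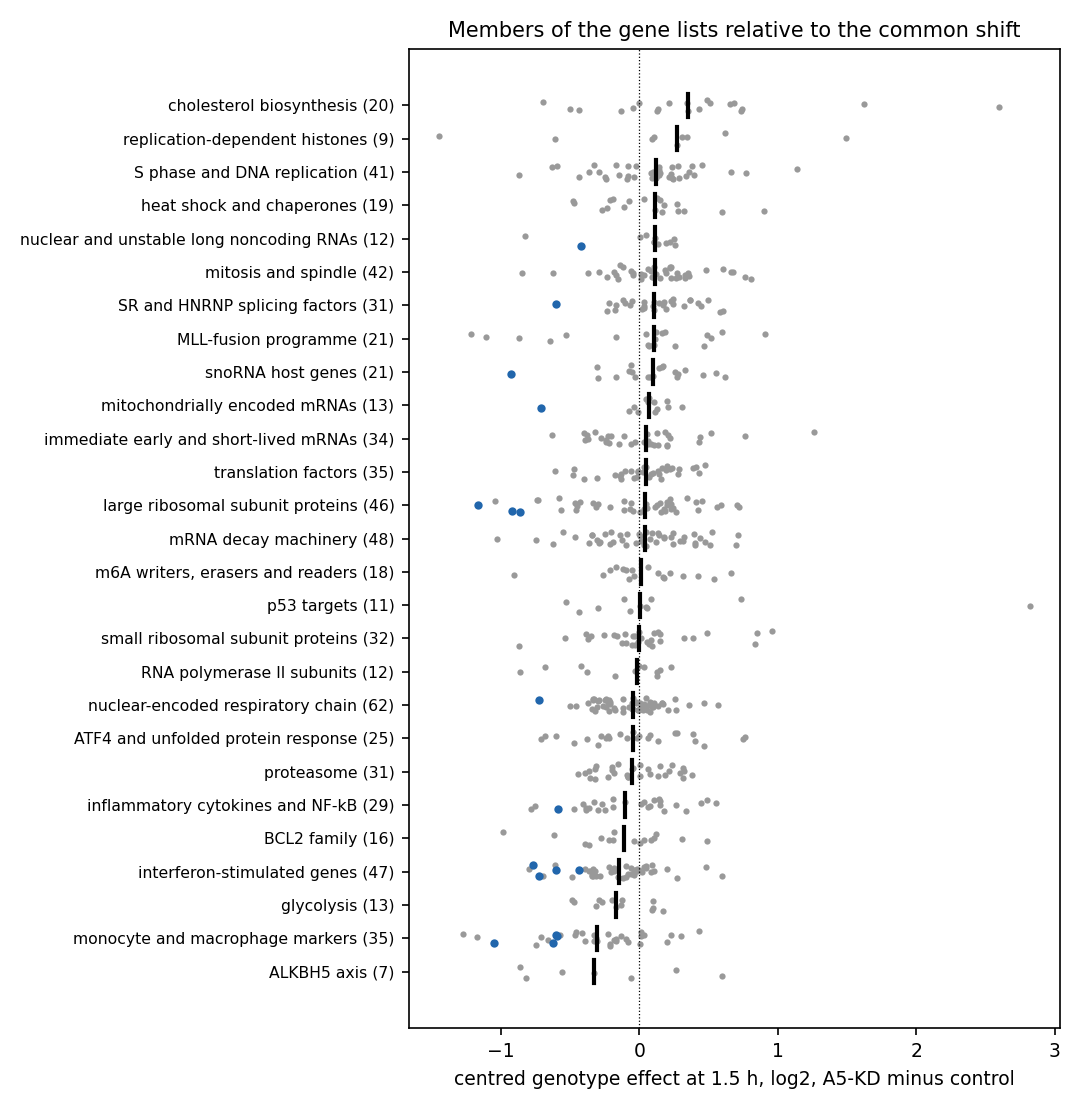
Centred difference between genotypes at 1.5 h (horizontal axis, log2, A5-KD minus control) for each tested member of the gene lists with at least 7 tested members (number in brackets), with a black bar at each list's median and blue points for members past the threshold. All blue points lie below 0, and medians run from −0.33 in the ALKBH5 axis to 0.35 in cholesterol biosynthesis.

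Mitochondrially encoded transcripts divided by strand and kind. All 12 messages of the heavy strand's transcript were higher in A5-KD, beside 61.3% of all tested genes and 89.3% of the highest CPM group. Their mean rates were 0.245% to 0.343% in control and 0.652% to 0.862% in A5-KD, and none was called after centring. MT-CO2, a subunit of cytochrome oxidase, had 0.279% and 0.288% in control and 0.734% and 0.761% in A5-KD (1.26, SE 0.0768, limma adjusted p = 1.42e-06). MT-ND6, a complex I subunit and the only message read from the other strand, had 0.0425% and 0.0418% in control and 0.0777% and 0.0699% in A5-KD. Its centred difference was −0.71 (limma adjusted p = 0.0412), and that call and the uncentred one (0.43, limma adjusted p = 0.0252) ended without any 1 of the 4 libraries. The tRNAs showed the same division. The 6 tested on the strand of the messages had mean rates of 0.346% to 0.773% in control and 0.292% to 1.63% in A5-KD, and 4 were called higher. The 6 tested on the strand of MT-ND6 had 0.0127% to 0.0543% in control and 0.0124% to 0.0496% in A5-KD, and none was called higher. Both ribosomal RNAs lay below the shift. MT-RNR2, the large one, had 0.0644% and 0.0680% in control and 0.0948% and 0.0980% in A5-KD, with a centred difference of −0.80 (limma adjusted p = 9.75e-06). MT-RNR1 stood at −0.66, a call lost without any 1 of the 4 libraries. The libraries were made from polyadenylated RNA, in which ribosomal and transfer RNAs are seen only in part.

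A like contrast was seen between 4 nuclear genes and annotated genes on the opposite strand, pairs picked after their values were seen. CCL3, a chemokine of monocytes, had 0.703% and 0.697% in control and 1.74% and 1.81% in A5-KD, 1.29 log2 higher (SE 0.109). CCL3-AS1, on the opposite strand of the same stretch of chromosome 17, had 0.0260% and 0.0297% in control and 0.0211% and 0.0251% in A5-KD, a difference of −0.09 (SE 0.112) and of −1.23 after centring (limma adjusted p = 1.13e-04). The CPM of the pair was similar, 627 and 516. MIF, an inflammatory cytokine, had 0.0794% and 0.0757% in control and 0.216% and 0.236% in A5-KD. MIF-AS1, opposite to it, had 0.0191% and 0.0224% in control and 0.0220% and 0.0216% in A5-KD, with overlapping groups. Opposite LYZ, ENSG00000257764 had 0.0556% and 0.0596% in control and 0.0515% and 0.0542% in A5-KD. Opposite IFITM3, ENSG00000251661 had 0.0363% and 0.0405% against 0.0483% and 0.0406%. In each of these 4 pairs the coding gene was higher in A5-KD, while its partner differed by less than 0.1 log2 and did not pass the test. Other pairs differed more. RPL30-AS1, opposite RPL30, stood at −0.15 log2, SYN1, opposite TIMP1, at −0.43, and ENSG00000267062, opposite PRDX2, at −0.48. These genes did not pass the uncentred test, and neither did PRDX2 (0.64, limma adjusted p = 0.0921), while RPL30 and TIMP1 were called higher.

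**Figure D5:**
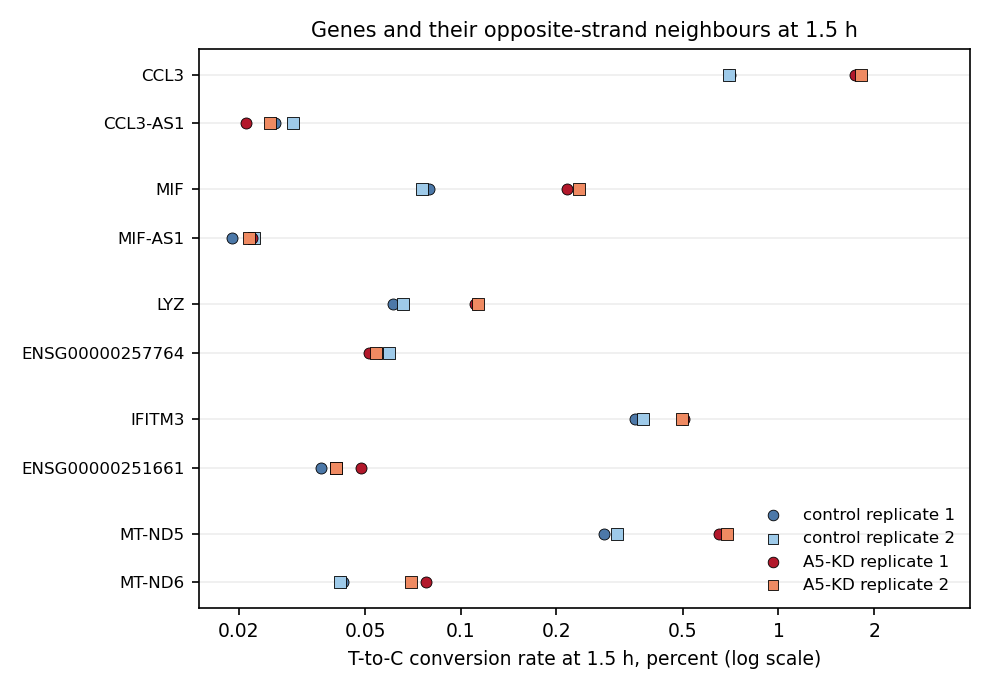
T-to-C conversion rate at 1.5 h (horizontal axis, percent, log scale) in the 2 control and 2 A5-KD libraries for 4 coding genes, each with the gene annotated opposite to it in the next row, and for MT-ND5 and MT-ND6 on opposite mitochondrial strands. Rates of the opposite-strand genes lie between 0.0191% and 0.0777%. The A5-KD points lie above control for the upper member of all 5 pairs, while among the lower members MT-ND6 shows the only clear gap.

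Across all genes, 1911 of the 10549 tested (18.1%) overlapped a more abundant gene on the opposite strand. Their median difference was 0.94 log2, beside 1.13 for 7939 genes with no more abundant overlapping gene and 1.13 for 644 that overlapped one on the same strand only. Of the 1911, 31 were centred lower (1.62%, beside 0.976% of all tested genes), and of those 31, 1 was higher and 1 lower uncentred. Genes annotated as antisense showed the gap within their own type. The 335 with a more abundant opposite-strand partner had a median difference of 0.35, and the 147 others had 0.97. A group of 160 genes had a rate under 0.1% in all 4 libraries. Their median rate was 0.0354% and 0.0352% in the control libraries and 0.0427% and 0.0385% in the A5-KD libraries, and the limit on the A5-KD rates keeps out genes that rose, so their small difference is set by the choice. Of the 160, 101 (63.1%) overlapped a more abundant gene on the opposite strand, beside 18.1% of all tested genes. The strand setting of the authors' counting is not given in the sources used here, and reads of a gene and of its opposite-strand partner cannot be told apart from these values. The mismatch rate of unlabelled RNA, which a library made without 4sU would give, was not measured here, and its part in these rates was not tested.

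Genes with the lowest rates at the start of the chase, read in other libraries, had the smallest difference between genotypes. For 258 genes whose mean control rate at 0 h was under 0.05%, the median difference at 1.5 h was 0.20 log2, and 26 were called higher. It was 0.81 for 410 genes from 0.05% to 0.1%, 1.04 for 1077 genes from 0.1% to 0.2%, 1.11 for 2851 genes from 0.2% to 0.5%, 1.15 for 4829 genes from 0.5% to 1%, and 1.09 for 1124 genes at 1% or more. The 0.05 percentage points added before taking logs pull differences toward 0 at low rates, and their part in these lower values was not tested. Median rates were 0.112% in control and 0.252% in A5-KD from 0.05% to 0.1%, 0.185% and 0.431% from 0.1% to 0.2%, and 0.573% and 1.31% from 0.5% to 1%. Under 0.05% they were 0.0566% and 0.0761%. Of the 103 genes centred lower, 35 fell in the first band and 18 in the second. By class, the median was 1.12 for 8981 protein-coding genes, 1.10 for 520 pseudogenes and 0.86 for 958 long noncoding RNAs. The motif TATTTAT, a core of AU-rich elements that mark short-lived messages, was found on the transcript strand in 34.5% of the 3′ UTRs. The median was 1.10 with none, 1.13 with 1 and 1.15 with 2 or more.

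The last comparisons asked whether the genotype difference at 1.5 h departed from that at the pulse end or at 4.5 h. The libraries of the 3 times are separate. The median genotype difference, 1.10 log2 at 1.5 h, compared with 1.03 at 0 h, 1.07 at 4.5 h and 0.94 at 7.5 h. No gene passed the test of the difference between 1.5 h and 0 h (0% called in each direction by limma). Uncentred, 391 genes had an unadjusted p under 0.05 (3.71% of those tested), and centred, 346 did (3.28%). Against 4.5 h no gene passed either, and 453 had a centred unadjusted p under 0.05 (4.29%), with a smallest adjusted p of 0.0806. The 103 genes centred lower at 1.5 h lay below the shift in 102 cases at 0 h, 100 at 4.5 h and 97 at 7.5 h. Of the 10441 genes not called when centred, 5553, 5437 and 5242 lay below it at these times. The median SE of a single gene's difference between times was 0.525 log2, and even the −2.93 of DNAH9 (SE 0.728) between 1.5 h and 0 h did not pass. For genes with an SE near the median or above, only very large changes could have been seen. Some abundant genes had a smaller SE for the uncentred difference from 0 h, such as MALAT1 (0.05, SE 0.053) and SON (0.12, SE 0.095).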

How the data were processed

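Each library's deposited values were fractions from 0 to 1, one per gene, taken from the assay and their range to be T-to-C conversion rates and given here in percent. The deposited CPM column, a single one for the series, was used only as abundance; all its values under 1000 reads were whole reads at a step of 0.0265 (tolerance 0.1, 100%), and with 1 column no count test across samples could be run. HISAT2 2.1.0, CASAVA and the build hg38 are named in the submitters' processing notes. What tool made the rates, whether variants were masked and the strand setting are not given here. The columns marked S were assigned to A5-KD by elimination, since those marked C match control. Markers were read from the CPM column: 12 of 14 monocytic markers had at least 5 CPM (lowest MPO, 0.185), as did 0 of 7 erythroid (4 at 0), 1 of 6 lymphoid (3 at 0) and 0 of 6 epithelial or kidney markers (2 at 0).

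Rates in percent plus 0.05 were put on the log2 scale, so fold changes of low rates are understated. limma 3.58.1 in R 4.3.3 fitted 8 group means over all 16 libraries, with a variance trend in log2(CPM + 0.01), two-sided tests and Benjamini-Hochberg adjustment at 0.05 over all tested genes. The fit was tested on simulated data. Contrasts were A5-KD minus control at 1.5 h and its difference from 0 h and 4.5 h, uncentred and centred on library medians (the 4.5 h one centred only). Alternatives were the pseudocount, the CPM minimum, no trend, a replicate block, centring on the mean, leaving out each library, and fitting the compared times alone. Depth per gene is unknown, so no counting interval is given.

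Gene positions, types and transcripts come from GENCODE 29; 55 tested genes were not in it. Symbols came from the table for 8711 tested genes and from the reference for 1818. Overlap of genes means any shared base of 2 gene bodies. The comparison, the members and the 30 gene lists were chosen with earlier results of these data known, so no list is independent evidence. Named genes are the axis genes, the 8 largest calls per direction at or above the median CPM with 4 rates above 0 and no overlap of rates between genotypes, the 5 highest in CPM, and up to 4 members per list by centred p, of which some are printed and a few are not reported here. Genes outside this rule are said to be chosen after their values were seen.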

Additional observations from a re-analysis of the deposited data

How the results depend on the processing

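The 6466 higher calls stayed within 1.5 times under each alternative run, from 4508 with a CPM minimum of 20 to 7239 in the fit of the 1.5 h libraries alone, and from 4376 to 4786 with 1 library left out. The median difference was 1.18 log2 with a pseudocount of 0.01, 1.02 with 0.1, 1.08 and 1.12 with a CPM minimum of 1 and 20, and 0.90 with none. The 8 lower calls became 19 and 3 with a CPM minimum of 1 and 20, 83 with none and 21 in the fit of the 1.5 h libraries alone. The 103 centred lower calls became 60 and 202 with pseudocounts of 0.01 and 0.1, 16 without a CPM minimum, 56 without the variance trend, 21 in the 1.5 h libraries alone and 54 to 64 with 1 library left out. The 5 centred higher calls became 9 with a pseudocount of 0.1, 8 with a CPM minimum of 20, 3 with none, 3 without the trend, 3 in the 1.5 h libraries alone and 0 to 5 with 1 library left out. The cause of these moves was not tested.

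With the replicate block, 65 genes were centred lower, 60 of them among the 103, 4 were centred higher, 1 of them (GIHCG) among the 5, and 6142 were higher uncentred. SON, SAP18, AIM2, ENSG00000258581, PCDH15, SERF2, HNRNPD, CCL5, IFITM1, MT-ND6, CTSD, TMSB10, MT-RNR1 and FAM50A lost the centred call, and CHROMR gained one (limma adjusted p = 0.0318). Same-numbered libraries at 1.5 h deviated together with a correlation of 0.00834 over genes in 2 pairs, which does not show the numbers to pair the samples and does not settle how they were handled.

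For the differences between times, 0 calls became 1 lower against 0 h with a CPM minimum of 1 (uncentred and centred) and with none (uncentred). Against 4.5 h, 2 were lower with a pseudocount of 0.01 and 2 without the trend, 1 was lower and 1 higher with a CPM minimum of 1, 1 was higher with no minimum, and with 1 library left out 0 to 1 were called in each direction, the 1 without control replicate 1 at 1.5 h.

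Some small differences changed sign. Without a CPM minimum, centred values were −0.22 for LST1, −0.028 for AXL, −0.084 for MT-ND1, −0.17 for MT-CO2 and −0.14 for CCL3. Centring on the mean gave 0.024 for KDM4C and 0.067 for MIF, and a pseudocount of 0.01 gave 0.23 for MIF. With 1 library left out, centred values ran from −0.044 to 0.18 for LST1, −0.20 to 0.069 for KDM4C and −0.082 to 0.039 for MIF, and uncentred ones from −0.16 to 0.70 for POLR2A, −0.076 to 0.71 for MERTK and −0.012 to 0.056 for MIF-AS1. None of these values passed the test in the main analysis. Since T base counts are unknown, no depth limit can be given per gene.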
